A study of Mus musculus with 8 samples.

Results

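The cytosolic ribosomal protein genes of mouse aorta were compared between a thoracic aortic dissection model (TAD) and control tissue. They were taken by symbol: names that begin with Rpl or Rps and a digit, the stalk genes Rplp0 to Rplp2, and Rpsa, without the S6 kinase genes and without symbols of pseudogenes. This rule gave 82 of the 13839 genes in the table. The rule itself used no measured value, but the set was chosen with earlier results of these data known. Of the 82, 42 encode proteins of the large ribosomal subunit, 31 proteins of the small subunit and 3 proteins of the stalk, together called the 76 standard genes here. A further 5 are paralogs (Rpl3l, Rpl7l1, Rpl22l1, Rps27l and Rps27rt). The last, Rps19bp1, encodes a protein that binds Rps19 and is not part of the ribosome, so its symbol alone put it among the 82.

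The ribosome translates mRNA into protein, and its small subunit reads the codons while its large subunit joins the amino acids. A cell needs the proteins of both subunits in matched amounts, and nearly all of these genes carry a 5′ terminal oligopyrimidine (TOP) tract, a run of C and T at the start of the mRNA through which the kinase complex mTORC1 controls how much of the mRNA is translated. Most ribosomal proteins are made in every cell type, while a few have paralogs whose use is restricted to certain tissues.

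RNA of aortic tissue was sequenced in 8 libraries, 3 labelled TAD and 5 labelled control. From 3 weeks of age TAD mice were given beta-aminopropionitrile (BAPN) in their water for 4 weeks, at 1 g/kg daily; BAPN blocks lysyl oxidases, the enzymes that join collagen and elastin fibres by crosslinks. At 7 weeks of age an osmotic pump began to give them angiotensin II, a vasoconstrictor peptide, at 1 µg/kg per min, and the aorta was taken 24 h later. How control mice were treated is not stated in those sources that were used. The labels name no strain, and do not say whether the libraries of a group are different mice. The p-values therefore rest on the spread among libraries, which may not be the spread among mice.

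Libraries held 12042971 (TAD 1) to 15039132 (TAD 3) counts. All 9 smooth muscle markers listed were present, and their levels summed to 803.5 to 4842 CPM in TAD libraries (CPM being counts relative to each library's scaled total), against 2396 to 11600 CPM in controls. The tissue also held fat, with 6293 to 10080 CPM of 8 white adipocyte markers in TAD and 13870 to 15340 CPM in control. Heart muscle RNA varied within both groups, since the summed cardiomyocyte markers ran from 33.11 to 12630 CPM in TAD and from 44.38 to 19270 CPM in control, and were highest in TAD 1 and control 1. The share of mitochondrial transcripts lay between 8.103% and 9.563% in TAD libraries, against 5.464% to 15.13% in the controls.

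The 30 bases from 10 before to 20 after the RefSeq transcription start are given for 5 of the 82 genes (build GRCm38.p6, transcribed strand, capitals marking each unbroken run of at least 8 C or T). The standard genes shown each have such a run. Rpl12, Rpl27, Rplp0 and Rpsa, which were called higher in TAD, had none in the same window, nor had Rps15 and Rps3a1, which were not called. A window without a run does not show that the mRNA lacks a TOP tract. Rpl38, on chr11:114668570-114668599, plus strand, had the highest fitted fold change of the 82 genes. Rps6, on chr4:86857348-86857377, minus strand, was called in every fit that left out 1 library. Rps15a, on chr7:118116128-118116157, minus strand, is one of the 8 largest increases, Rplp2, on chr7:141447641-141447670, plus strand, is the stalk gene that was not called, and Rpl3l, on chr17:24727816-24727845, plus strand, is a muscle paralog with no such run in this window.
Rpl38: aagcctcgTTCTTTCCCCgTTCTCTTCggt
Rps6: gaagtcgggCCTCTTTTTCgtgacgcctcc
Rps15a: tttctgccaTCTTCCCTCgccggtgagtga
Rplp2: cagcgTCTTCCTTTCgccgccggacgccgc
Rpl3l: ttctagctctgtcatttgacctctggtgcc

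Promoters in the RefSeq table (250 bases before to 50 after the start) matched 61 of the 81 ribosomal protein genes and paralogs. A run of at least 8 C or T on the transcribed strand began within 10 bases of the start in 21 of the 61 (34.4%), against 10.7% of all 27025 genes in that table. Within 50 bases of the start it was found in 51 of the 61 (83.6%), against 38.6% of all genes. The motif CCGGAAG, searched on both strands, was found in 41.0% of the 61 and in 9.93% of all genes. CTTTCC, which can lie inside the C and T runs and was searched on both strands, was found in 50.8% of the 61 and 29.3% of all genes, and TATAAA, also on both strands, in 11.5% of the 61 and 15.7% of all genes. These matches describe letters in the promoters, not measured binding or measured mRNA ends.

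The comparison of TAD with control asked whether mRNAs of the ribosome were altered in aortas taken 24 h into the infusion. The ribosomal protein genes took 2.919%, 2.18% and 2.168% of all counts in TAD 1, TAD 2 and TAD 3, against 1.546%, 2.039%, 1.413%, 1.583% and 1.265% in control 1 to control 5. Every TAD library lay above every control library, but control 2 came close to the lower TAD libraries, and TAD 1 stood apart at the top. The mean was 2.422% ± 0.4302 in TAD (SD, n = 3) and 1.569% ± 0.2909 in control (SD, n = 5), a ratio of 1.544. The 95% Wilson interval of each share was at most 0.01901 percentage points wide, which covers counting error only, so the spread between libraries is far larger than the counting error. In tissue RNA, a change in which cells are present and a change in the RNA of each cell cannot be told apart.

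**Figure D1:**
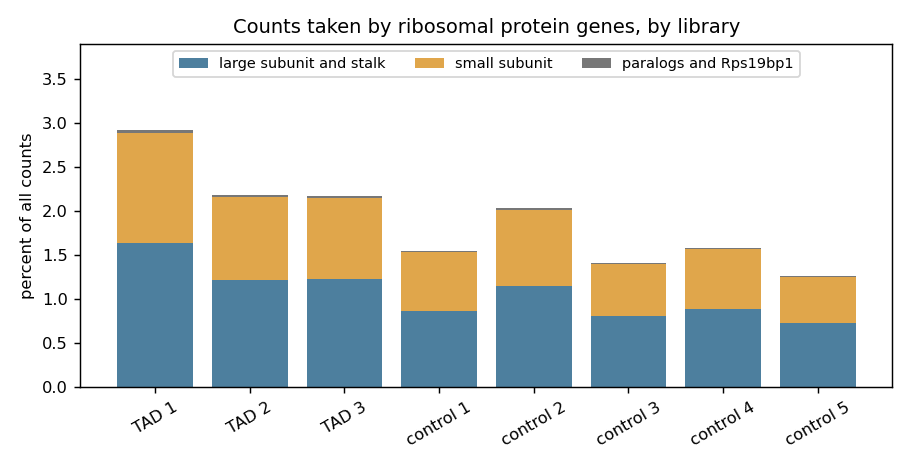
Percent of all counts taken by the 82 ribosomal protein rows in each library (TAD left, control right), stacked by large subunit with stalk, small subunit, and paralogs with Rps19bp1. TAD 1 stands highest at 2.919%, and TAD 3 at 2.168% lies just above the highest control, control 2 at 2.039%.

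Both subunits took a higher share of counts in TAD. Large subunit and stalk genes took 1.363% of counts on average in TAD and 0.8878% in control (a ratio of 1.536), and small subunit genes took 1.035% in TAD and 0.665% in control (a ratio of 1.557). The large-to-small ratio was 1.307, 1.302 and 1.346 in the TAD libraries, against 1.317, 1.327, 1.363, 1.303 and 1.381 in the controls. It averaged 1.318 ± 0.02409 in TAD (SD, n = 3) and 1.338 ± 0.03264 in control (SD, n = 5), and the groups overlapped, so the balance of the subunits differed by less than the spread between libraries.

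Among the 82 genes, 37 rose in TAD, none fell and 45 did not pass the test (edgeR's quasi-likelihood test, adjusted p below 0.05 over the 13701 genes tested). All 82 passed the filter on low counts. Of all genes tested, 15.2% were called higher and 11.8% lower. At an unadjusted p below 0.05 stood 65 of the 82, against 5539 of the 13701 genes tested. A positive log2 fold change was found in 80 of the 82, against 7197 of the 13701. The median log2 fold change was 0.56 (1.472-fold), with quartiles of 0.47 and 0.74, against a median of 0.04 over all genes tested. In 40 of the 82 each TAD library exceeded each control, as in 16.9% of all genes tested. Because the genes share the same libraries, their counts are not independent of each other.

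The calls leaned on TAD 1. Without that library 3 of the 82 were called higher (Rpl38, Rpl41 and Rps6), against 10.2% of all genes, and the median log2 fold change was 0.39. Leaving out control 3, control 4 or control 5 left 13, 14 and 12 calls, against 12.1%, 11.2% and 11.2% of all genes called higher. Leaving out control 1 left 21, against 12.8%. Leaving out TAD 2, TAD 3 or control 2 left 39, 36 and 45, against 15.1%, 14.9% and 12.9%. The direction was steadier than the calls, since 77 of the 82 kept a positive log2 fold change in all 8 of these fits. After conversion of the deposited FPKM to TPM (a length-scaled unit that sums to the same total in each library), limma called 0 of the 82 higher, against 7.72% of all genes, with 20 at an unadjusted p below 0.05 and 80 positive. In TPM the 82 genes summed to 39720, 26530 and 31370 in TAD 1 to TAD 3, against 20940, 31670, 21720, 28750 and 18620 in control 1 to control 5, and the groups overlapped.

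**Figure D2:**
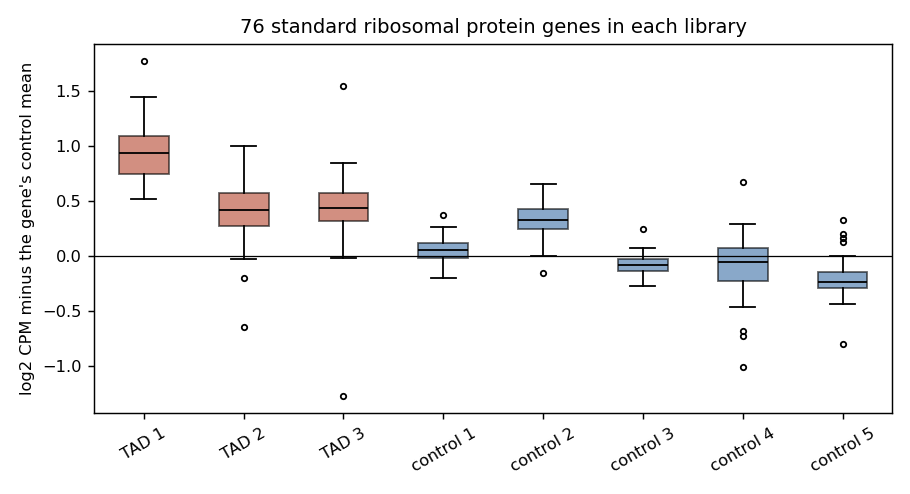
Log2 CPM of the 76 standard genes in each library minus the same gene's mean over the controls (box: quartiles and median; points: genes beyond the whiskers; TAD left, control right). The TAD medians are 0.94, 0.42 and 0.43, and control 2, at 0.32, stands above the other controls.

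Gene by gene, all 76 standard genes lay above their control mean in TAD 1, 72 of 76 in TAD 2 and 72 in TAD 3. Among controls the number was 52, 75, 12, 32 and 4 in control 1 to control 5, so the controls too moved as a block, control 2 up and control 5 down. The 9 standard genes with under 300 coding bases had a median log2 CPM of 1.22 above the control mean in TAD 1, against 0.86 for the other 67. In TAD 2 these medians were 0.26 and 0.42, and in TAD 3 they were 0.34 and 0.43. Across the 76 genes, which share each library's depth and total, Spearman's rho between coding length and this difference was -0.48 in TAD 1 and between -0.24 and 0.25 in the other 7 libraries.

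Large subunit genes rose in 21 of 42 cases, against 15.2% of all genes tested, with a median log2 fold change of 0.54. In 22 of 42 each TAD library exceeded each control, against 16.9% of all genes tested. Rpl38 (GRCm38 chromosome 11, 114668524 to 114672331, plus strand; 4 exons), which in mice is needed for translation of a subset of Hox mRNAs, stood at 149.7, 66.62 and 64.12 CPM in TAD 1 to TAD 3, against 49.73, 47.9, 38.86, 43.79 and 38.93 CPM in control 1 to control 5. TAD 1 was more than double the other TAD libraries, and those still lay above every control. Its log2 fold change was 1.09 ± 0.27 (SE; edgeR adjusted p = 0.02006), and 0.57 without TAD 1 (adjusted p = 0.02841).

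Rpl41, the smallest ribosomal protein, was chosen here after its values were seen because its call, too, held in all 8 fits with a library left out. It stood at 687.4, 451.9 and 466.1 CPM in TAD 1 to TAD 3, against 317.6, 349.2, 276.1, 292.5 and 300.6 CPM in control 1 to control 5, with no overlap. The log2 fold change of Rpl41 was 0.80 ± 0.17 (SE, edgeR adjusted p = 0.01107).

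Rpl39 lines part of the exit tunnel of the large subunit. It stood at 192.1, 106.3 and 118.1 CPM in TAD 1 to TAD 3, against 69.6, 104.5, 68.03, 59.93 and 58.13 CPM in control 1 to control 5. Control 2 nearly reached TAD 2, while the other controls lay well below. Rpl39 had a log2 fold change of 0.95 ± 0.25 (SE, edgeR adjusted p = 0.02463), and the call was lost without TAD 1 (adjusted p = 0.09754) or without control 1, 3, 4 or 5 (0.05054 to 0.05925).

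Rpl27, a large subunit protein, stood at 352.5, 215.4 and 205.4 CPM in TAD 1 to TAD 3, against 155.3, 181.0, 129.8, 81.21 and 128.9 CPM in control 1 to control 5. The groups did not overlap, and control 4 was the lowest. For Rpl27 the log2 fold change was 0.93 ± 0.27 (SE, edgeR adjusted p = 0.03614), lost without TAD 1 (0.1424) or without control 1, 3, 4 or 5 (0.05205 to 0.07676).

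Rpl12 sits at the base of the stalk, where translation factors bind. It stood at 361.4, 258.2 and 284.7 CPM in TAD 1 to TAD 3, against 162.6, 240.1, 145.9, 169.7 and 127.5 CPM in control 1 to control 5. All TAD libraries were higher than all controls, with control 2 the nearest. The log2 fold change of Rpl12 was 0.83 ± 0.22 (SE, edgeR adjusted p = 0.0227), lost without TAD 1 (0.08753), control 3 (0.05187) or control 4 (0.05181).

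Rpl13a, which in human myeloid cells can leave the ribosome to repress translation of inflammatory mRNAs, was counted at a low level. It stood at 9.861, 6.297 and 14.78 CPM in TAD 1 to TAD 3, against 4.39, 6.446, 5.296, 3.961 and 5.529 CPM in control 1 to control 5. Here TAD 3 was highest, and TAD 2 lay below control 2, so the groups overlapped. Rpl13a had a log2 fold change of 1.01 ± 0.30 (SE, edgeR adjusted p = 0.03976), and the call held in 1 of the 8 fits with a library left out (without TAD 2); without TAD 3 the log2 fold change was 0.65 and the adjusted p 0.1461. Exons of Rpl13a share 35.4% of their bases with Gm45713, Mir5121 and Snord33, and 57.4% of its 50-base stretches occur in other genes, so its count is uncertain.

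Rpl23a had the only negative log2 fold change among the standard genes, and was chosen after its values were seen. It stood at 6.574, 2.651 and 1.708 CPM in TAD 1 to TAD 3, against 4.47, 4.497, 3.879, 6.602 and 2.38 CPM in control 1 to control 5. The groups overlapped widely, and the log2 fold change of -0.26 ± 0.50 (SE) was not called (edgeR adjusted p = 0.727). Its exons share 62.3% of their bases with Snord42b and Tlcd1, and its count, too, is uncertain. Rpl36, another large subunit protein, stood at 187.4, 108.2 and 107.5 CPM in TAD 1 to TAD 3, against 120.8, 117.7, 92.49, 112.5 and 104.0 CPM in control 1 to control 5. TAD 1 alone stood above the controls, and Rpl36 was not called (log2 fold change 0.30 ± 0.20, SE; edgeR adjusted p = 0.3136; -0.03 without TAD 1).

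Small subunit genes rose in 13 of 31 cases, against 15.2% of all genes tested, with a median log2 fold change of 0.59. In 14 of 31 each TAD library exceeded each control, against 16.9% of all genes tested. Rps6 (chromosome 4, 86854660 to 86857412, minus strand; 5 exons), the substrate of the S6 kinases downstream of mTORC1, stood at 647.5, 498.0 and 421.6 CPM in TAD 1 to TAD 3, against 298.2, 347.1, 274.0, 326.4 and 246.6 CPM in control 1 to control 5. The lowest TAD library was clear of the highest control. Its log2 fold change was 0.81 ± 0.18 (SE, edgeR adjusted p = 0.01276), and 0.61 without TAD 1 (adjusted p = 0.0468). Of its 50-base stretches 84.6% occur in transcripts of 14 pseudogenes, so some of its reads may have been lost or split.

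Rps27a, which is made as a fusion with ubiquitin, stood at 347.0, 277.5 and 206.9 CPM in TAD 1 to TAD 3, against 137.0, 191.8, 137.1, 156.7 and 117.8 CPM in control 1 to control 5. TAD 3 came nearest to the controls, just above control 2. For Rps27a the log2 fold change was 0.90 ± 0.21 (SE, edgeR adjusted p = 0.01414), and the call was lost without TAD 1 only (0.05472).

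Rps15a, a small subunit protein, stood at 265.5, 209.5 and 194.7 CPM in TAD 1 to TAD 3, against 117.7, 179.5, 110.6, 118.1 and 98.44 CPM in control 1 to control 5. Control 2 stood apart from the other controls and still lay below every TAD library. The log2 fold change of Rps15a was 0.84 ± 0.21 (SE, edgeR adjusted p = 0.01944), lost without TAD 1 only (0.07498).

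Rpsa, also known as the laminin receptor precursor, stood at 1110, 932.0 and 981.6 CPM in TAD 1 to TAD 3, against 737.6, 758.7, 562.3, 528.0 and 532.5 CPM in control 1 to control 5. The TAD libraries were close to each other and above all controls. Rpsa had a log2 fold change of 0.69 ± 0.18 (SE, edgeR adjusted p = 0.02401), lost without TAD 1 (0.07678) or without control 3, 4 or 5 (0.05526 to 0.05898).

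Rps10, a protein of the small subunit head, was counted at 4.52, 4.508 and 4.073 CPM in TAD 1 to TAD 3, against 2.155, 2.024, 2.685, 1.761 and 2.841 CPM in control 1 to control 5. The TAD libraries were nearly equal, with no excess in TAD 1. For Rps10 the log2 fold change was 0.93 ± 0.28 (SE, edgeR adjusted p = 0.04182), and the call was lost when any 1 of the 8 libraries was left out (0.05587 to 0.1115). Exons of Rps10 share 28.7% of their bases with Gm15420 and RPS10-NUDT3, which makes its count uncertain.

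Rps3a1, a small subunit protein near the mRNA exit, stood at 809.3, 562.6 and 514.3 CPM in TAD 1 to TAD 3, against 415.2, 497.9, 388.4, 517.0 and 323.7 CPM in control 1 to control 5. TAD 3 lay below control 4, and the gene was not called by edgeR (log2 fold change 0.55 ± 0.22, SE; adjusted p = 0.08987), although DESeq2 called it (adjusted p = 0.04589). Rps15, a protein of the small subunit head, stood at 313.7, 238.2 and 249.7 CPM in TAD 1 to TAD 3, against 241.5, 259.9, 193.2, 183.1 and 169.9 CPM in control 1 to control 5. Its groups overlapped as well, with a log2 fold change of 0.35 ± 0.18 (SE) that was not called (edgeR adjusted p = 0.1872).

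The stalk is the mobile arm of the large subunit that recruits elongation factors. Rplp0, which anchors the arm, stood at 1179, 810.8 and 892.7 CPM in TAD 1 to TAD 3, against 619.6, 730.5, 526.8, 470.7 and 530.2 CPM in control 1 to control 5 (log2 fold change 0.74 ± 0.20, SE; edgeR adjusted p = 0.02556). Rplp1, an acidic protein of the arm, stood at 746.5, 562.7 and 641.1 CPM in TAD 1 to TAD 3, against 470.7, 493.6, 360.0, 357.7 and 337.0 CPM in control 1 to control 5 (0.69 ± 0.18, SE; edgeR adjusted p = 0.02548). Both rose with no overlap between the groups, and both calls were lost without TAD 1 (adjusted p of 0.09617 for Rplp0 and 0.0887 for Rplp1) or without control 3, 4 or 5 (0.05752 to 0.06201). Rplp2, the partner of Rplp1, stood at 443.3, 345.9 and 263.7 CPM in TAD 1 to TAD 3, against 272.0, 251.3, 217.6, 265.0 and 250.5 CPM in control 1 to control 5. TAD 3 lay inside the control range, and Rplp2 was not called (0.48 ± 0.18, SE; edgeR adjusted p = 0.07739), although DESeq2 called it (adjusted p = 0.04258).

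**Figure D3:**
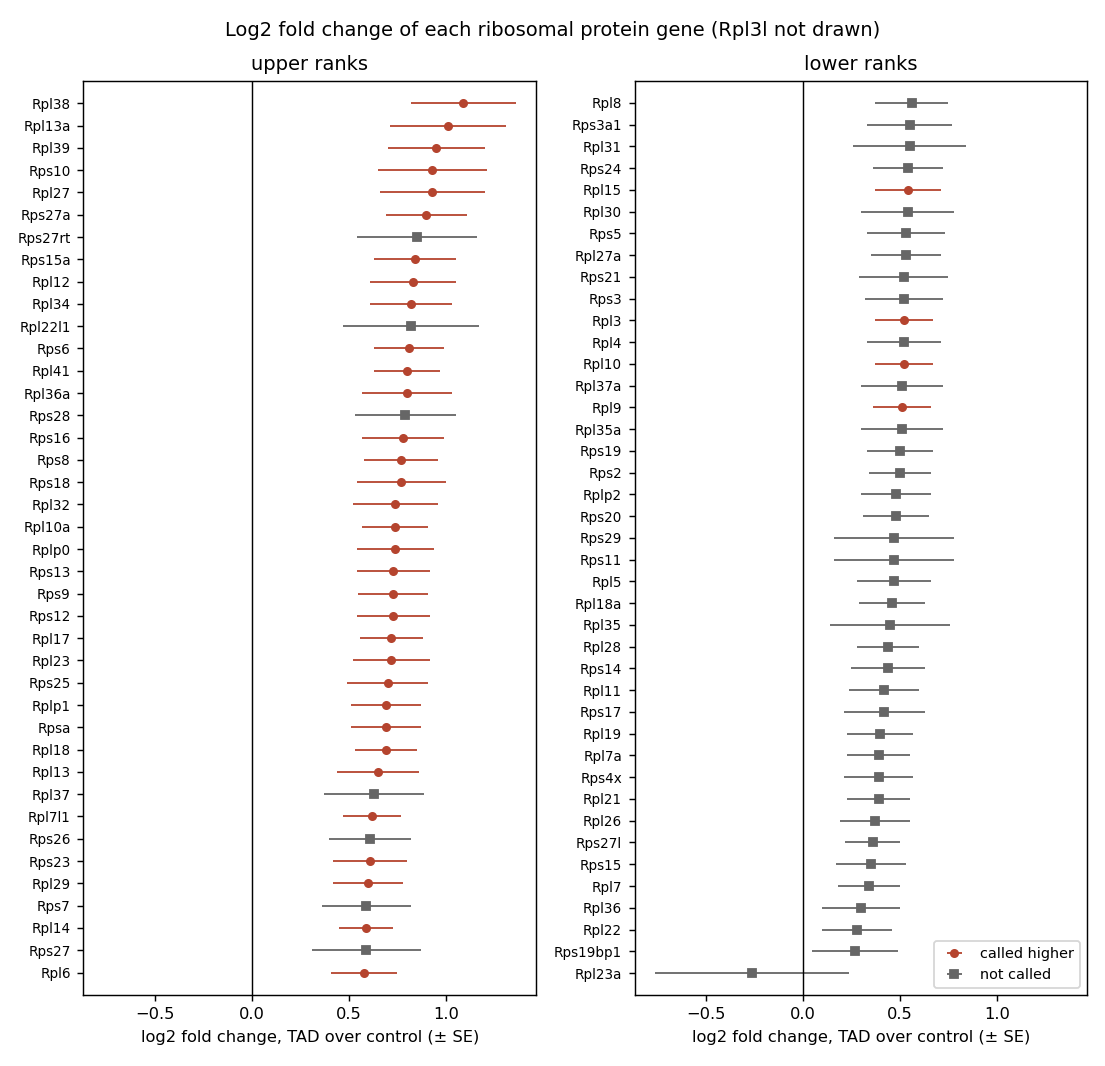
Log2 fold change, TAD over control, with its standard error for 81 of the 82 rows, ranked from the top left to the bottom right; circles are genes called higher by edgeR and squares genes not called. Rpl3l, at -2.04 ± 1.75, is not drawn, and of the genes shown Rpl23a at -0.26 is the only one below 0.

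Scaled to each other instead of to all genes, no ribosomal protein gene was shown to depart from the rest. This fit replaced the library totals by the summed counts of the 82 genes, so that a gene's change is read against that of the whole set. None of the 82 was called by edgeR, and none stood at an unadjusted p below 0.05; DESeq2 with the same scaling, an alternative added after seeing the data, gave 0 and 0. In the same fit 35.1% of all genes tested were called, 749 higher and 4060 lower, since this scaling sets the rise of the set to about 0 and moves the median of all genes to -0.54. This fit estimated its spread over all genes tested, so it can miss small departures. The absence of calls does not show that the 82 genes moved alike. The relative log2 fold change lay within 0.5 of zero for 80 of the 82 genes. The exceptions were Rpl3l at -2.50 and Rpl23a at -0.94, whose adjusted p of 0.134 was the smallest of the 82, and the upper end was 0.44 for Rpl38 and Rpl13a.

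Among the 5 paralogs, Rpl7l1, a nucleolar relative of Rpl7 that takes part in making the large subunit, was the 1 paralog called. It stood at 136.7, 89.88 and 110.8 CPM in TAD 1 to TAD 3, against 64.18, 77.96, 67.28, 77.91 and 79.25 CPM in control 1 to control 5. The groups did not overlap and the controls were close to each other. Its log2 fold change was 0.62 ± 0.15 (SE, edgeR adjusted p = 0.01891), lost without TAD 1 only (0.08733).

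Rpl22l1 can take the place of Rpl22 in the ribosome, and in mice Rpl22 represses its mRNA. It stood at 5.588, 5.767 and 8.081 CPM in TAD 1 to TAD 3, against 4.55, 4.048, 2.461, 5.062 and 2.227 CPM in control 1 to control 5, with no overlap. It was not called (log2 fold change 0.82 ± 0.35, SE; edgeR adjusted p = 0.112). Rpl22 itself stood at 172.8, 128.6 and 136.3 CPM in TAD 1 to TAD 3, against 123.9, 155.4, 109.6, 117.9 and 94.07 CPM in control 1 to control 5. Its groups overlapped, and its log2 fold change of 0.28 ± 0.18 (SE) was not called (edgeR adjusted p = 0.2814). The difference between the 2 genes' changes was not tested.

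Rps27l, a p53-induced relative of Rps27, stood at 70.09, 67.81 and 61.69 CPM in TAD 1 to TAD 3, against 51.17, 63.34, 48.56, 43.94 and 52.29 CPM in control 1 to control 5. Control 2 exceeded TAD 3, and the gene was not called (0.36 ± 0.14, SE; edgeR adjusted p = 0.08149). Rps27rt, a single-exon copy of Rps27 on chromosome 9, stood at 40.84, 17.83 and 18.07 CPM in TAD 1 to TAD 3, against 13.49, 18.14, 13.95, 10.42 and 14.82 CPM in control 1 to control 5. TAD 1 alone stood clear of the controls, and edgeR did not call it (0.85 ± 0.31, SE; adjusted p = 0.07058), while DESeq2 did (adjusted p = 0.04536). Of the 50-base stretches of Rps27rt, 91.1% occur in other genes, as do 98.6% of those of Rps27, so reads of the 2 genes cannot be told apart with certainty.

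Rpl3l replaces Rpl3 in the ribosomes of heart and skeletal muscle. It stood at 5.013, 2.453 and 0 CPM in TAD 1 to TAD 3, against 7.982, 40.1, 0.373, 2.201 and 0.2304 CPM in control 1 to control 5. A count of 0 in TAD 3 allows up to 0.1971 CPM. The groups overlapped, and Rpl3l was not called (log2 fold change -2.04 ± 1.75, SE; edgeR adjusted p = 0.4205). It was high where Ckm, a muscle creatine kinase gene, was high: Ckm stood at 47.09, 15.51 and 0 CPM in TAD 1 to TAD 3, against 92.51, 721.2, 1.268, 11.88 and 0.3839 CPM in control 1 to control 5. The part of muscle tissue in the level of Rpl3l was not tested, and without control 1, control 2 and TAD 2 its log2 fold change was 1.38 (edgeR adjusted p = 0.5749).

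**Figure D4:**
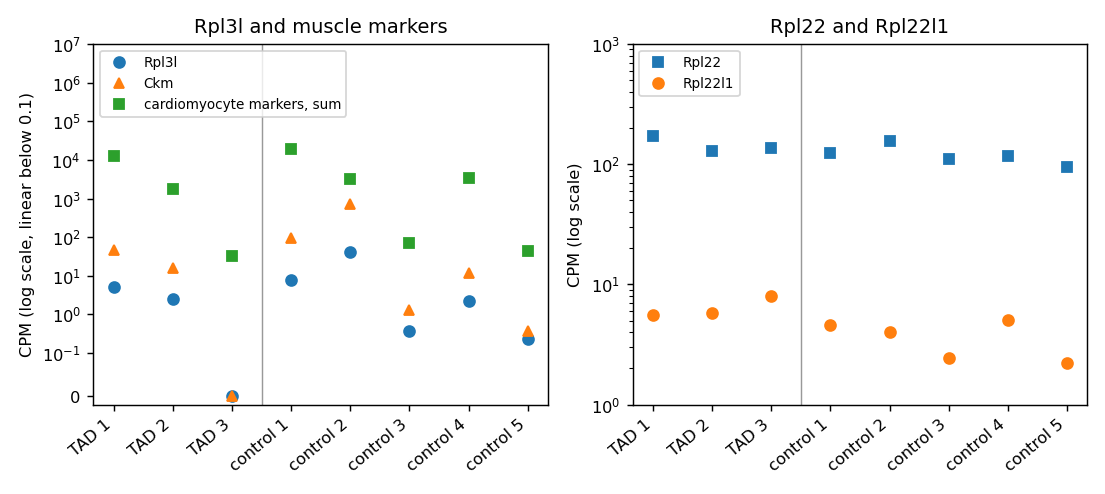
CPM per library (TAD left of the line, control right). Left: Rpl3l, the muscle gene Ckm and the summed cardiomyocyte markers on an axis that is logarithmic above 0.1 CPM; Rpl3l is highest in control 2, as is Ckm, and both are 0 in TAD 3. Right: Rpl22 and its paralog Rpl22l1 on a logarithmic axis; Rpl22l1 lies between 5.588 and 8.081 CPM in TAD and between 2.227 and 5.062 CPM in control.

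The deposited FPKM (fragments scaled to gene length and library total) allow levels to be set between genes. By the mean over all 8 libraries, Rplp1 was the highest, with 1309 FPKM in TAD and 794.1 FPKM in control, followed by Rps3a1 with 646.5 in TAD and 432.6 in control, Rpl36 with 352.4 and 280.7, and Rps15 with 250.4 and 191.8. The lowest were Rps10 with 0.7672 FPKM in TAD and 0.3916 in control, Rpl13a with 0.9788 and 0.4739, Rpl22l1 with 1.114 and 0.6203, and Rpl3l with 0.8303 and 3.385. The order within 1 group can differ. The gene lengths these FPKM imply run from 375 to 14242 bases (median 4128), while the principal mRNAs have a median length of 882 bases, so this order depends on the length the authors used.

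Next, the genes were grouped by features that the symbol rule did not use. Of the 81 ribosomal protein genes and paralogs, 30 hold at least 1 small nucleolar RNA gene (58 in all), small RNAs that guide rRNA modification. Of these 30, 15 rose, with a median log2 fold change of 0.55, and of the other 51, 22 rose, with a median of 0.59. Of all genes tested, 15.2% were called higher. Sequence is widely shared, since 79 of the 81 have at least 1 stretch of 50 bases that also occurs in transcripts of another gene (median share 51.3%), and 9 have over 20% of their exon bases in common with other genes. Counts of such genes are uncertain where reads were split or dropped. Of the 41 with over 50% shared stretches 20 rose (median 0.59), and of the other 40, 17 rose (median 0.54). By coding length, 3 of the 11 with under 300 coding bases rose (median 0.63), and 34 of the other 70 (median 0.55). The differences between these groups of genes were not tested.

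Other genes of translation were read by list. Among ribosomal proteins whose symbols the rule misses, Rack1, a scaffold on the small subunit, rose (log2 fold change 0.69 ± 0.18, SE; edgeR adjusted p = 0.02133), as did Fau, made as a fusion of a ubiquitin-like protein with S30 (0.81 ± 0.19, SE; edgeR adjusted p = 0.01655). Without TAD 1, neither was called.

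Of the ribosome assembly genes, 28 of 30 rose, against 15.2% of all genes tested, and none fell, with a median log2 fold change of 1.03. Gar1, a protein of the pseudouridylation complex, stood at 47.99, 15.44 and 27.99 CPM in TAD 1 to TAD 3, against 8.78, 9.595, 8.056, 10.05 and 9.599 CPM in control 1 to control 5 (1.72 ± 0.31, SE; edgeR adjusted p = 0.004952). Nop58, a core protein of the methylation complex, averaged 81.21 ± 22.52 CPM in TAD (SD, n = 3) and 25.27 ± 5.191 CPM in control (SD, n = 5), and Gnl3, a nucleolar GTPase, 80.71 ± 24.15 CPM in TAD (SD, n = 3) and 26.43 ± 5.621 CPM in control (SD, n = 5). The 2 not called were Ubtf (-0.14 ± 0.13, SE) and Nop10 (-0.16 ± 0.20, SE). Without TAD 1, 16 of 30 were called higher (median 0.79), against 10.2% of all genes, and in TPM 14 (median 0.75), against 7.72%. Relative to the summed ribosomal proteins 11 were higher and 2 lower (median 0.40), against 749 higher and 4060 lower of 13701 genes.

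Translation initiation factors rose in 13 of 30 cases, against 15.2% of all genes tested, and fell in none (median 0.38). Eif6, which keeps free large subunits from joining small ones, rose most (1.44 ± 0.19, SE; edgeR adjusted p = 0.001369), followed by the RNA helicase Eif4a1 (1.22 ± 0.16, SE; adjusted p = 0.001176) and Eif2s2, a subunit of the factor that brings the initiator tRNA (0.91 ± 0.11, SE; adjusted p = 0.0008277). Without TAD 1, 7 of 30 were called higher, against 10.2% of all genes, and in TPM 3, against 7.72%. The median was negative (-0.21) relative to the summed ribosomal proteins.

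Other mRNAs known to carry a TOP tract rose in 4 of 15 cases, against 15.2% of all genes tested, and fell in none. Their median log2 fold change was 0.26. Those called were the nucleolar chaperone Npm1 (1.18 ± 0.19, SE), the splicing factor Hnrnpa1 (1.08 ± 0.16, SE), the nascent-chain factor Btf3 (0.89 ± 0.14, SE) and the elongation factor Eef1b2 (0.69 ± 0.17, SE), with edgeR adjusted p of 0.003295, 0.002161, 0.002867 and 0.01748. The other 11 were not called. Relative to the summed ribosomal proteins the median of the list was -0.34, with 1 gene called higher and 3 lower. Over all 13701 genes that fit called 749 higher and 4060 lower.

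Among 18 genes of mTORC1 and its control of TOP mRNAs, 1 rose and 3 fell (median -0.14). Of all genes tested, 15.2% rose and 11.8% fell. Ddit4, a stress-induced inhibitor of mTORC1, stood at 119.2, 141.2 and 39.16 CPM in TAD 1 to TAD 3, against 25.7, 15.97, 19.84, 23.62 and 35.55 CPM in control 1 to control 5 (2.05 ± 0.40, SE; edgeR adjusted p = 0.006666). TAD 3 stood just above control 5. Lower in TAD were Eif4ebp2, a repressor of cap-dependent initiation (-1.11 ± 0.21, SE; edgeR adjusted p = 0.006056), Tsc2, another inhibitor of mTORC1 (-1.03 ± 0.15, SE; adjusted p = 0.001936), and Mtor, the kinase itself (-0.84 ± 0.23, SE; adjusted p = 0.029). Without TAD 1, 1 gene of the list rose and 2 fell. Of all 13776 genes in that fit, 2549 were called in either direction, and 10.2% of the 13776 were called higher.

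Mitochondrial ribosomal proteins, which build the separate ribosome of mitochondria, had 1 gene that rose and 18 that fell among 77 (median -0.14). The shares over all genes tested were 15.2% and 11.8%. Mrpl34 averaged 27.72 ± 6.719 CPM in TAD (SD, n = 3) and 79.16 ± 10.39 CPM in control (SD, n = 5), with an edgeR adjusted p of 0.001098, and Mrpl52 was the gene that rose (0.66 ± 0.17, SE; edgeR adjusted p = 0.02312). The median stayed negative under each scaling tried, from -0.10 with library totals to -0.29 in TPM and -0.73 relative to the summed ribosomal proteins. Without TAD 1 12 fell and none rose, while 10.2% of all 13776 genes were called higher and 2549 in either direction.

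**Figure D5:**
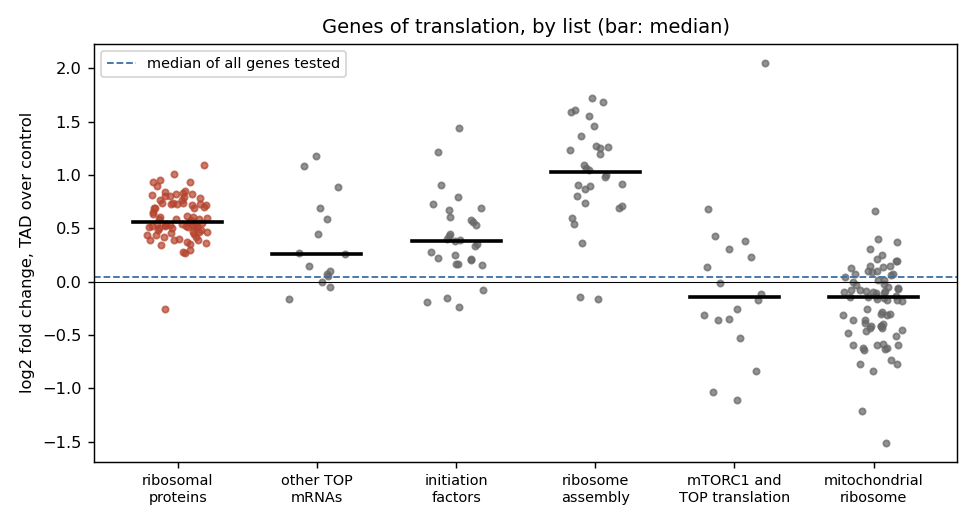
Log2 fold change, TAD over control, of each gene (points) in the ribosomal protein set and 5 other lists of translation genes, with the median of each as a bar and the median of all genes tested as a dashed line. Rpl3l is not drawn and is left out of the first bar. Ribosome assembly lies highest, with a median of 1.03, and the mitochondrial ribosome and mTORC1 lists lie below 0, at -0.14.

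Most of the red cell, platelet, neutrophil and macrophage markers were also higher in TAD than in control. The marker counts below stand beside 15.2% of all genes tested called higher and 11.8% called lower. All 7 red cell markers rose, and summed to 56230, 77310 and 31090 CPM in TAD 1 to TAD 3, against 1606 to 7530 CPM in control. Of the neutrophil markers 7 of 8 rose (482 to 1403 CPM summed in TAD, against 15.29 to 147.4 in control), of the macrophage markers 6 of 9 (968.8 to 1441 in TAD, against 309.7 to 599.4 in control) and of the platelet markers 5 of 6 (334 to 1069 in TAD, against 30.21 to 69.19 in control). Adipocyte markers fell, 5 of 8 white and 4 of 7 brown, as did 4 of 8 endothelial markers. None of the 9 lymphocyte, 9 smooth muscle, 8 fibroblast and 8 cardiomyocyte markers tested was called, and 1 of 8 cell cycle genes rose. Of 5 Schwann cell markers S100b fell (-1.75 ± 0.45, SE; edgeR adjusted p = 0.0214), and none of 5 neuron, 5 mesothelial and 1 skeletal muscle markers tested was called. The neuron markers summed to 71.08, 1556 and 9.657 CPM in TAD 1 to TAD 3, against 0.8205 to 115.9 CPM in control, so TAD 2 stood apart. Within TAD, the red cell and platelet sums were highest in TAD 2 and the macrophage sum in TAD 3. The neutrophil sum and the ribosomal protein share were highest in TAD 1. The part of these cells in the ribosomal protein values was not tested. With the summed cardiomyocyte markers as a covariate, 46 of the 82 genes were called higher, against 15.8% of all genes.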

How the data were processed

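Per the file headers, the table deposited by the authors gives raw counts and FPKM values by gene and library; no row has counts in fewer than 3 libraries. HISAT2, HTSeq, fastp 0.23.1 and bcl2fastq 2.19 are named in the submitters' processing notes. Those notes also name human builds, but 13823 of 13839 gene identifiers match mouse GENCODE M21 (GRCm38). Per the labels' protocols, extraction used TRIpure and libraries a NEBNext Ultra kit; strand and mouse build are not given in the sources used here.

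Counts of all genes were filtered with filterByExpr (13701 kept) and TMM-scaled, and tested in edgeR 4.0.16 (R 4.3.3; quasi-likelihood F test, Benjamini-Hochberg over all genes, threshold 0.05; biological coefficient of variation 41.65%). SE came from the log2 fold change and its F value. No 2 libraries of a group agreed within sampling noise (mean chi-square per gene at least 46.42). Alternatives used DESeq2 1.42.0, limma 3.58.1 on log2(FPKM + 1), on log2(FPKM + 0.1) and on log2(TPM + 1), other scalings, filters and covariates, a replicate block, and leaving out libraries. The edgeR fit was checked on simulated counts. Groups came from the titles.

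The members and lists were chosen with earlier results of these data known. Named members are the paralogs, stalk genes, Rpsa and Rps6, the 8 largest called increases (no decrease was called), and the 4 highest and 4 lowest by FPKM; in other lists, up to 3 called genes of largest change. Other names are marked, are a named paralog's parent gene, or complete a count of called or uncalled genes. A gene of one list is not reported here.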

Additional observations from a re-analysis of the deposited data

Results flagged for a closer look

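In each of 8 of the 82 genes the highest of the 5 controls stood apart from the others by more than Dixon's 95% critical value (0.71 of the range), and in each it was control 2. Chance flags about 5% of groups of this size, and the 82 genes share the same libraries. Rpl3l stood at 40.1 CPM in control 2 and at 0.2304 to 7.982 CPM in the other controls. Rpl39 stood at 104.5 CPM there and at 58.13 to 69.6 CPM in the others, and Rps15a at 179.5 CPM there and at 98.44 to 118.1 CPM in the others. The other 5, named because their controls met this criterion, were Rpl15 at 238.8 CPM in control 2 (146.4 to 167.9 CPM in the other controls), Rpl35 at 26.01 (15.74 to 17.01), Rps7 at 305.9 (163.4 to 198.5), Rps18 at 279.5 (168.4 to 192.5) and Rps26 at 197.2 (122.4 to 132.7). Control 2 also had the highest ribosomal protein share among controls, 2.039% of counts, and the highest level of the muscle gene Ckm, 721.2 CPM.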

How the results depend on the processing

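Of the 37 calls among the 82 genes, 0 remained with library sizes set to the summed member counts, 0 in TPM and 1 without control 1 and TAD 1; leaving out 1 library gave 3 to 45 calls. Upper-quartile scaling gave 26, against 13.5% of all genes called higher, and DESeq2 53, against 18.3%. Median-of-ratios factors and library totals gave 37 each, against 14.7% and 15.9%. Limma on log2(FPKM + 1) and on log2(FPKM + 0.1) also gave 37 each, against 16.8% in both. Library totals without the members gave 38, no count filter 36 and a mean of at least 1 CPM 37, against 15.3%, 15.1% and 15.5%. None of the settings tried for these calls called a member lower. Over all genes 3705 were called (56.22% higher), 1963 in the fit without control 1 and TAD 1, and 2549 to 3728 in the fits with 1 library left out; the share of higher calls was 51.07% with upper-quartile scaling, 38.59% in TPM, where the median of all genes was -0.12, and 15.57% relative to the summed members. The members' median of 0.56 was -0.04 relative to their own sum, by construction, and 0.39 to 0.67 with 1 library left out. The ratio of summed shares was 1.39 to 1.67 with 1 library left out, and 1.34 in TPM. No member was called relative to the sum with any library left out.

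Scaled to the summed members, 37 of the 82 had a positive value, and the named members whose sign changed were Rpl7l1 at -0.00, Rps27l at -0.22, Rplp2 at -0.14, Rps3a1 at -0.05, Rpl36 at -0.34 and Rps15 at -0.23. Rpl36 ran from -0.03 to 0.43 with 1 library left out, the lowest without TAD 1 (edgeR adjusted p = 0.8917), and Rpl3l stood at 1.38 without control 1, control 2 and TAD 2. The cause of these reversals was not tested beyond the scaling itself. For the 21 named members, 367 single values kept direction and side of the threshold, 99 were no longer past it, 9 passed it and 8 changed sign.

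The labels do not say whether same-numbered libraries are pairs, and the values do not settle it. Deviations of same-numbered libraries correlated at 0.42, 0.08 and 0.55. TAD 1 correlated best with control 1 (0.42) and TAD 3 with control 3 (0.55), but TAD 2 correlated best with control 1 (0.33). With the replicate block, 0 of the 82 genes were called (21 at an unadjusted p below 0.05), 1255 genes over all, and relative to the sum 1 member was called, Rpl3l, which was lower (-3.05, edgeR adjusted p = 0.033). Low counts limit Rps10, Rpl13a, Rpl22l1, Rpl23a and Rpl3l.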

Other observations

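The 4 symbols of ribosomal protein pseudogenes that the rule left out were in the table. Rpl9-ps6 stood at 37.22, 22.54 and 23.45 CPM in TAD 1 to TAD 3, against 17.08, 17.02, 13.95, 9.39 and 15.82 CPM in control 1 to control 5, and was called higher (log2 fold change 0.92 ± 0.25, SE; edgeR adjusted p = 0.02599). Rps18-ps5 (0.98 ± 0.56, SE), Rpl36a-ps1 (0.70 ± 0.81, SE) and Rpl10-ps3 (0.25 ± 0.37, SE) were not called (edgeR adjusted p of 0.2263, 0.5545 and 0.6555). Reads of such copies and of their parent genes cannot be told apart with certainty.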
